A study of Phaseolus vulgaris with 2 samples.

Results

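TUB1 (Phvul.009G017300), TUA2 (Phvul.009G114100) and TUA4 (Phvul.007G047300) are the common bean genes that the study matched to a beta tubulin and a pair of alpha tubulin genes of Arabidopsis and listed among its up-regulated genes, in a group with cell cycle and signalling genes. All 3 identifiers were found among the 27197 genes of the deposited expression table. They were chosen by the difference between Drought and Control FPKM in these same libraries, as called by the study, so those values are given as a description, with no test. The tissue was the aerial part (trifoliate leaves, petioles, internodes and stems) of wild type plants of Phaseolus vulgaris cultivar Pinto Saltillo (PS), a drought-tolerant dry bean. Drought plants went without irrigation for 2 weeks from 45 days of age, and Control plants of the same age stayed under continuous irrigation. Both groups were grown in vermiculite with Hoagland's solution, and each pool of tissue held 6 to 9 plants. RNA of the pools was combined within each condition, and the table holds 1 value per gene and condition. No difference between Drought and Control therefore has a replicate check within these values. The study checked selected genes by semi-quantitative RT-PCR on RNA of independent experiments. The cellulose synthase gene CESA4 was among them, but no tubulin gene was.

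Alpha and beta tubulin are GTP-binding proteins that pair into a dimer, and the dimers polymerize into microtubules. In growing plant cells, microtubules beneath the plasma membrane guide the cellulose synthase complexes that lay down cellulose, and in dividing cells microtubules form the preprophase band, the spindle and the phragmoplast, which builds the new cell plate. Plants carry several genes for each of the dimer's subunits, and in Arabidopsis the members of these families differ in the organs in which they are transcribed. Coding sequences of tubulin genes are very similar, so the short single-end reads used here can be shared between them, and the FPKM of any one of these genes is uncertain to that extent.

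Expression is given as FPKM, fragments per kilobase of transcript per 1000000 mapped reads, as the authors obtained it from Cuffdiff. FPKM is a level per transcript length, so genes can be set side by side within a library. The log2 ratio used below is log2 of Drought FPKM + 1 over Control FPKM + 1, which understates the difference of genes with low FPKM. Summed over all genes, FPKM came to 1228410 in Drought and 1319560 in Control. The read counts behind each gene are not in the table, so the depth behind a value is unknown and no interval from counting error was computed. Genes that reached 1 FPKM in Drought or in Control numbered 19661, and their median log2 ratio was -0.03. Of these, 2.48% were higher in Drought by at least 4-fold and 1.62% were lower by at least 4-fold. The corresponding shares at 2-fold were 11.7% higher and 6.60% lower. As a check of the labelled tissue, 25 of the 29 genes with the Gene Ontology (GO) term photosynthesis, light harvesting reached 1 FPKM, and together the 29 genes summed to 12867 FPKM in Drought and 11303 FPKM in Control, with 2 genes at 0 in Drought and 3 at 0 in Control.

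Transcript levels of all 3 tubulin genes were higher in Drought. TUA2, an alpha tubulin gene on chromosome 9 from 17075948 to 17077904, had 228 FPKM in Drought and 38.9 FPKM in Control, a log2 ratio of 2.52. TUB1, the beta tubulin gene, on chromosome 9 from 2952758 to 2956093, had 158 FPKM in Drought and 27.2 FPKM in Control, a log2 ratio of 2.50. TUA4, the other alpha tubulin gene, on chromosome 7 from 3813001 to 3815344, had 118 FPKM in Drought and 11.8 FPKM in Control, a log2 ratio of 3.22. Positions are those of the deposited table, whose gene identifiers end in an earlier version number than the Phytozome release of the genome and annotation named in the study's methods, so the build of the coordinates is uncertain. All 3 genes passed the 4-fold limit, which 2.48% of all genes passed. Since the selection used the same Drought and Control values and fixed the direction, nothing is read from this count. Because the libraries were made from whole aerial tissue, more cells with tubulin transcripts and more transcript per cell cannot be told apart.

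**Figure D1:**
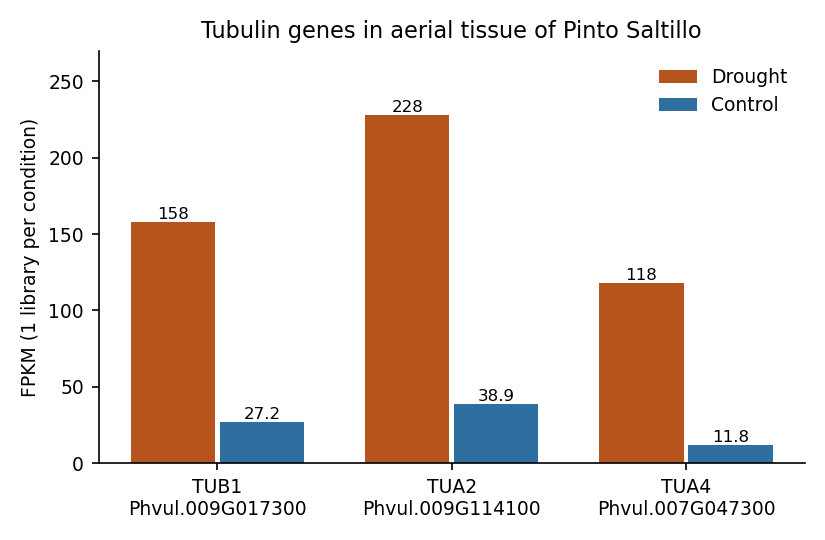
FPKM (y axis) of TUB1, TUA2 and TUA4 in the Drought library (left bar of each pair) and the Control library (right bar), 1 library per condition and hence no error bars. The Drought bars stand at 158, 228 and 118 FPKM and the Control bars at 27.2, 38.9 and 11.8 FPKM.

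The order of the levels was the same in both libraries, with TUA2 the most abundant, then TUB1, then TUA4. Without replicates it cannot be said which neighbours in this order differ beyond their spread. TUA2 and TUB1 kept nearly the same proportion, with TUA2 at 1.44 times the FPKM of TUB1 in Drought and 1.43 times in Control. TUA4 lay closer to both under drought. TUA2 had 1.93 times the FPKM of TUA4 in Drought, against 3.30 times in Control, and TUB1 had 1.34 times the FPKM of TUA4 in Drought, against 2.30 times in Control. Summed, the alpha tubulin genes TUA2 and TUA4 held 346 FPKM in Drought and 50.7 FPKM in Control. This was 2.19 times the level of the beta tubulin gene TUB1 in Drought and 1.87 times its level in Control.

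Ranked by FPKM among all 27197 genes, TUA2 stood at place 476 in Drought and at place 3942 in Control. TUB1 stood at place 789 in Drought and at place 5411 in Control. TUA4, the lowest of these genes, stood at place 1113 in Drought and at place 9750 in Control. With each library scaled to a sum of 1000000, TUA2 took 185 in Drought and 29.5 in Control, TUB1 129 in Drought and 20.6 in Control, and TUA4 96.2 in Drought and 8.93 in Control. All 3 genes were thus among the top 4.09% of genes in Drought, and among the top 35.8% in Control.

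Each gene was also placed among genes of similar expression, defined as a mean log2(FPKM + 1) over both libraries within 0.25 of its own. TUB1 was at rank 6 by log2 ratio of 800 such genes, whose median was -0.13 and of which 85.0% were within 2-fold. In its window, 9 genes were higher in Drought by at least 4-fold and 17 were lower by at least 4-fold. TUA2 was at rank 5 of 565 genes, with a median of -0.11 and 87.1% of them within 2-fold. Its window held 8 genes that were higher by at least 4-fold and 14 that were lower by at least 4-fold. TUA4 was at rank 2 of 1319 genes, with a median of -0.15 and 85.3% within 2-fold. Here 17 genes were higher by at least 4-fold and 30 lower by at least 4-fold. The gene above TUA4 was Phvul.003G238200, the ortholog of an arabinogalactan protein of the cell surface (AGP18) in Arabidopsis, at 131 FPKM in Drought and 7.24 FPKM in Control. This gene was picked out with its values known. Over all 19661 genes, TUA4 held place 92, TUA2 place 230 and TUB1 place 238 by log2 ratio.

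**Figure D2:**
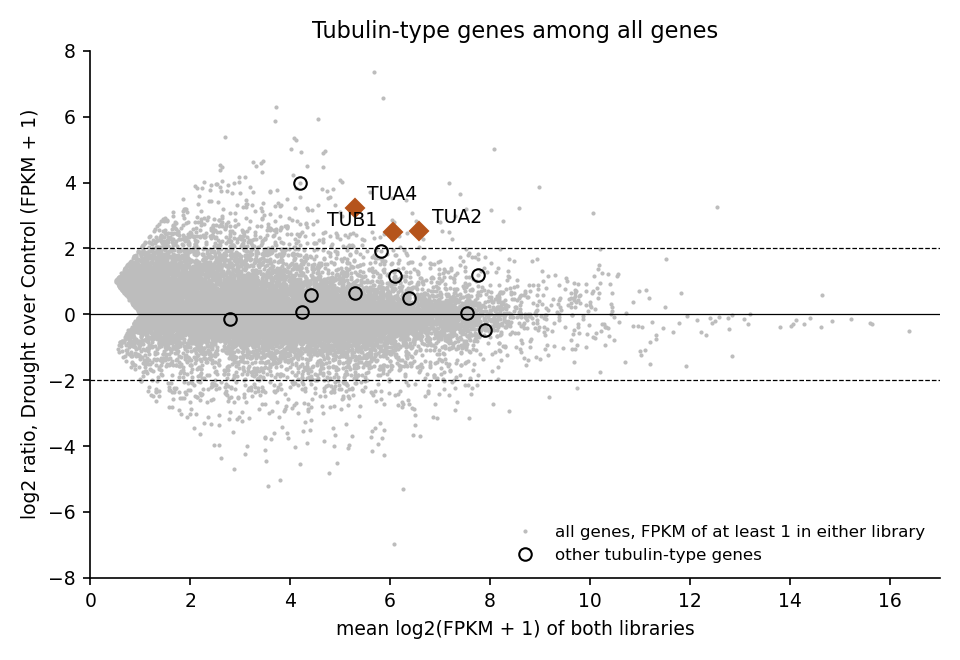
Log2 ratio of Drought over Control (y axis, FPKM + 1) against the mean log2(FPKM + 1) of both libraries (x axis) for 19661 genes (grey points), with TUB1, TUA2 and TUA4 as filled diamonds and the other tubulin-type genes as open circles. Dashed lines mark 4-fold, and the 3 named genes lie above the upper line at log2 ratios of 2.50, 2.52 and 3.22. One gene lies outside the y axis.

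The GO terms of the 3 genes overlap in part. TUA2 and TUA4 carry the same 16 terms, TUB1 carries 23, and 10 are common to all: GTP binding, GTPase activity, GTP catabolic process, microtubule, microtubule-based process, microtubule-based movement, protein polymerization, protein complex, structural molecule activity and cytoplasm. Terms of TUA2 and TUA4 that TUB1 lacks number 6 and include tubulin complex, structural constituent of cytoskeleton, cell wall and response to salt stress. TUB1 alone has 13 terms, among them cell wall organization, polysaccharide biosynthetic process, unidimensional cell growth, cell tip growth and root hair elongation. Of the 30 genes that carry the term microtubule and reached 1 FPKM, TUA4, TUA2 and TUB1 took ranks 2, 3 and 4 by log2 ratio. Without them the median of this term was 0.26, over genes that include the 11 other genes of the tubulin family described below. In microtubule-based process, also with 30 such genes, they took ranks 3, 4 and 5, and the median without them was 0.24.

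The terms that TUB1 does not share with TUA2 and TUA4 covered a wide range, with medians over their other genes from -0.15 to 0.92, where the median of all genes was -0.03. Among these 13 terms, 8 had medians above 0.3 without TUB1, namely regulation of hormone levels (0.92), cell tip growth (0.75), polysaccharide biosynthetic process (0.69), multidimensional cell growth (0.62), anthocyanin accumulation in response to UV light (0.60), cell wall organization (0.44), root hair elongation (0.43) and unidimensional cell growth (0.38). The other 5 were response to light stimulus (0.03), vacuole (-0.11), cytoskeleton organization (-0.13), gluconeogenesis (-0.14) and proteasomal protein catabolic process (-0.15). In cell tip growth, 42 of 99 genes were higher in Drought by at least 2-fold and 4 were lower, where 11.7% of all genes were higher and 6.60% lower. TUB1 was at rank 5 by log2 ratio in this term. Of the 6 terms that TUA2 and TUA4 carry and TUB1 lacks, some had medians above that of all genes without them. These were tubulin complex (0.65), cell wall (0.29) and structural constituent of cytoskeleton (0.04). In cell wall, 145 of 451 genes were higher and 48 lower by at least 2-fold, with TUA4 at rank 17 and TUA2 at rank 36. The others were membrane (-0.04), response to salt stress (-0.05) and cytosol (-0.16). Among the 687 genes of response to salt stress, TUA4 was at rank 3 and TUA2 at rank 13, and 82 genes were higher and 67 lower by at least 2-fold. Because many of these terms share genes, their medians are not independent. Apart from tubulin complex, these terms were not run with 1 FPKM required in both libraries. How far their counts and medians rest on genes of low FPKM in Control is therefore unknown.

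To see how the rest of the family stood, genes were taken as tubulin-type when they carried all of the terms GTPase activity, GTP binding, microtubule and protein polymerization. This gave 17 genes, the 3 above included. The table does not name the isotype of the other 14, so they are given by identifier. In all, 14 of the 17 reached 1 FPKM in Drought or Control. The remaining 3 genes, Phvul.002G007900, Phvul.002G329800 and Phvul.004G081100, had 0.670, 0.714 and 0.0141 FPKM in Drought, and 0.193, 0.151 and 0 FPKM in Control. Of the 14 genes, 12 were higher in Drought and 2 lower, and 7 were higher by at least 2-fold, 4 of these by at least 4-fold. The counts of higher genes include TUB1, TUA2 and TUA4, which were selected for being higher. The term tubulin complex, carried by 12 of the 17 and by Phvul.007G147200, had a median log2 ratio of 1.17 over 11 genes, TUA2 and TUA4 included. The median over the 14 tubulin-type genes was 0.91, and over the 11 genes other than TUB1, TUA2 and TUA4 it was 0.58. Of these 11 genes, 9 were higher in Drought and 2 lower, where all genes had a median log2 ratio of -0.03. By at least 2-fold, 4 were higher (11.7% of all genes) and none was lower. By at least 4-fold, 1 was higher (2.48% of all genes). One of the 11, Phvul.006G049100, also carries terms of chloroplast fission, a process of the plastid, and Phvul.006G110500 carries phragmoplast assembly and cytokinesis. The 4 terms do not show that either gene encodes alpha or beta tubulin. Their log2 ratios were 0.06 and -0.13, both below the median of 0.58.

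The gene with a larger log2 ratio than TUA4 was Phvul.002G289100, on chromosome 2 from 45229935 to 45232422, which carries the term tubulin complex. It had 71.7 FPKM in Drought and 3.56 FPKM in Control, a quotient of 20.1, or 3.995 on the log2 scale with the pseudocount. Below TUB1 came Phvul.007G070800, with 108 FPKM in Drought and 28.1 FPKM in Control, a log2 ratio of 1.91 and thus just under 4-fold. Its Control level was close to the 27.2 FPKM of TUB1. Phvul.002G237400, the most abundant tubulin-type gene of the Drought library, had 324 FPKM in Drought and 142 FPKM in Control, a log2 ratio of 1.18. Phvul.001G111700, which has the same terms as Phvul.002G237400, had 102 FPKM in Drought and 44.96 FPKM in Control, a log2 ratio of 1.17. In the other direction, Phvul.002G198600, the most abundant tubulin-type gene of the Control library, had 201 FPKM in Drought and 281 FPKM in Control, a log2 ratio of -0.48. Phvul.006G126100 had 186 FPKM in Drought and 181 FPKM in Control, a log2 ratio of 0.05, and Phvul.010G006400 had 48.1 FPKM in Drought and 30.4 FPKM in Control, a log2 ratio of 0.65. Phvul.006G110500, annotated to phragmoplast assembly, was the least abundant of the 14 in Drought, with 5.64 FPKM, against 6.26 FPKM in Control.

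**Figure D3:**
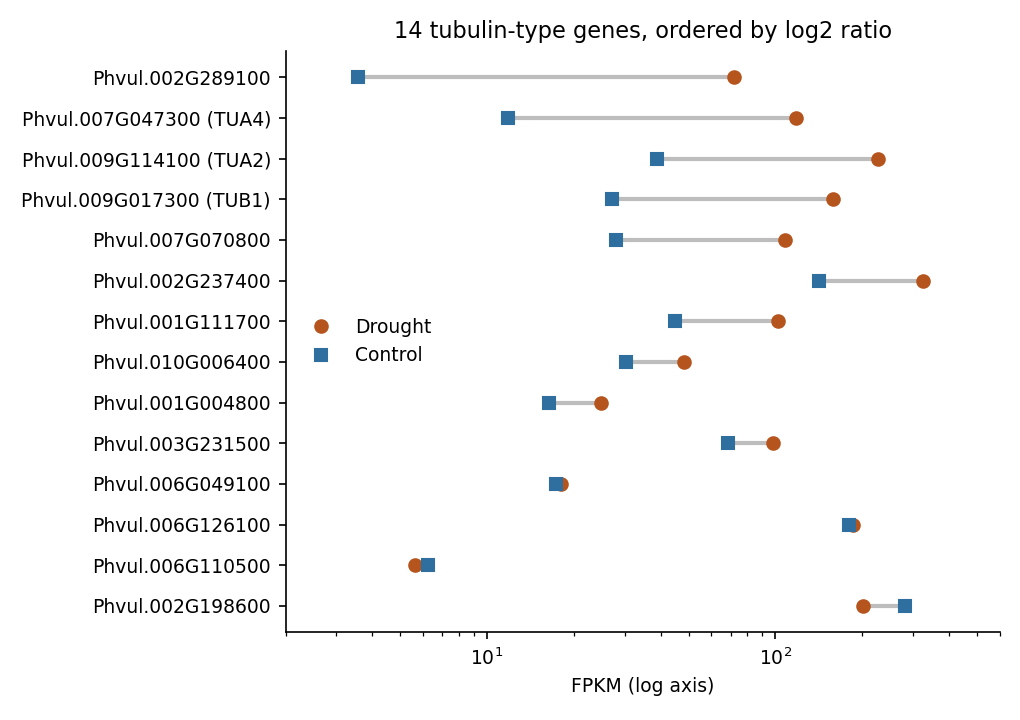
FPKM on a log axis (x axis) of the 14 tubulin-type genes that reached 1 FPKM, with circles for Drought and squares for Control, ordered from the highest log2 ratio at the top to the lowest at the bottom. Phvul.002G289100 has the widest gap, at 71.7 FPKM in Drought and 3.56 FPKM in Control, and 2 genes at the bottom have the Drought circle to the left of the Control square.

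Genes with exactly the same GO terms did not stand together. The 16 terms of TUA2 and TUA4 are carried by 4 genes in all. One of the other 2, Phvul.003G231500, had 97.9 FPKM in Drought and 68.7 FPKM in Control, a log2 ratio of 0.51, and the other, Phvul.002G007900, was below FPKM of 1 in both libraries. In Control, Phvul.003G231500 was above TUA2, at 38.9 FPKM, and in Drought it was below it, with TUA2 at 228 FPKM. The 23 terms of TUB1 are shared by 1 other gene, Phvul.001G004800. It had 24.9 FPKM in Drought and 16.4 FPKM in Control, a log2 ratio of 0.58, where that of TUB1 was 2.50.

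Summed over the 17 tubulin-type genes, FPKM was 1693 in Drought and 898 in Control, a quotient of 1.89. TUB1, TUA2 and TUA4 together accounted for 504 FPKM in Drought and 77.9 FPKM in Control. They thus made up 29.8% of the sum in Drought and 8.67% in Control. The other 14 genes summed to 1189 FPKM in Drought and 820 FPKM in Control, a quotient of 1.45. Of the net difference of 795 FPKM between both libraries, 53.5% came from the 3 named genes, which were selected for being higher in Drought. The net difference includes -80.5 FPKM of Phvul.002G198600 and -0.62 FPKM of Phvul.006G110500. Phvul.002G198600 made up 11.9% of the sum in Drought and 31.3% in Control, and Phvul.006G126100 made up 11.0% in Drought and 20.1% in Control. Within the family, TUA2 was at place 2 by FPKM in Drought and 6 in Control, TUB1 at place 5 in Drought and 9 in Control, and TUA4 at place 6 in Drought and 12 in Control.

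**Figure D4:**
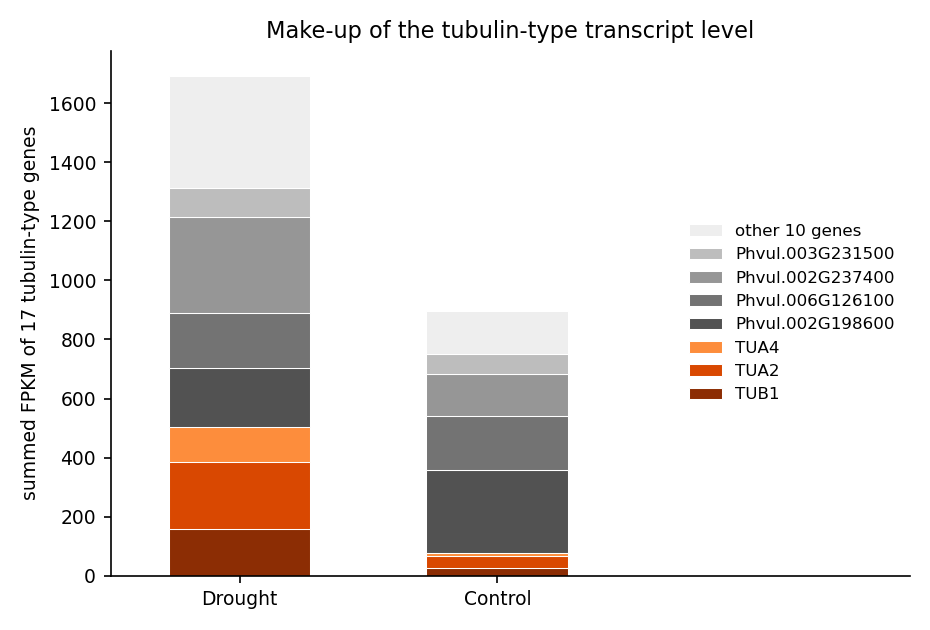
Summed FPKM (y axis) of the 17 tubulin-type genes in Drought (left) and Control (right), with TUB1, TUA2 and TUA4 in orange tones at the base of each bar, the 4 most abundant other genes of the Control library in grey and the remaining 10 genes at the top. The bars reach 1693 FPKM in Drought and 898 FPKM in Control, and the orange part is 504 FPKM in Drought and 77.9 FPKM in Control.

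No gene of the table overlaps the locus of TUB1, TUA2 or TUA4, and their nearest neighbours on the chromosome were within 2-fold on the log2(FPKM + 1) scale. Phvul.009G114000, whose locus ends 21 bp before that of TUA2 and which is annotated to xylulokinase activity, had 18.4 FPKM in Drought and 23.1 FPKM in Control, a log2 ratio of -0.31. Next to TUA4, Phvul.007G047200 had 23.5 FPKM in Drought and 25.4 FPKM in Control, a log2 ratio of -0.11. Next to TUB1, Phvul.009G017200 had 27.5 FPKM in Drought and 28.1 FPKM in Control, a log2 ratio of -0.03. On the far side, the neighbours of TUB1 and TUA4 were below 0.3 FPKM in both libraries, too low to pass 2-fold with a pseudocount of 1. The far neighbour of TUA2, Phvul.009G114200, had 3.29 FPKM in Drought and 4.38 FPKM in Control.

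The genes most alike in pattern were found by Euclidean distance in log2(FPKM + 1) over the 2 libraries, a measure that rests on 2 points per gene and carries no statement on shared function. Nearest to TUB1 was Phvul.006G085900 at a distance of 0.05, the ortholog of a polyamine oxidase gene (PAO4), with 157 FPKM in Drought and 26.3 FPKM in Control. It was followed by Phvul.006G065300, the ortholog of the thiamine synthesis gene THIC, and Phvul.003G236500, the ortholog of a peroxidase gene, at distances of 0.17 and 0.22. Nearest to TUA2 was Phvul.002G229200, of an extensin family, with 235 FPKM in Drought and 35.4 FPKM in Control at a distance of 0.14, then Phvul.009G075800 and Phvul.009G028900 at 0.21 and 0.25. TUA4 had no neighbour as close: Phvul.002G141900, the ortholog of the abscisic acid receptor gene PYR1, stood at a distance of 0.38 with 91.9 FPKM in Drought and 10.7 FPKM in Control, then Phvul.001G242900, the ortholog of the clock gene ELF4, at 0.41 and Phvul.006G164100 at 0.53. The nearest tubulin-type gene was Phvul.007G070800 for TUB1 and TUA4, at distances of 0.54 and 1.19, and TUB1 for TUA2, at 0.73.

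Other genes of the microtubule system, taken by GO term and counted where they reached 1 FPKM in Drought or Control, stood closer to the median of all genes. For microtubule motor activity, the term of kinesins and dynein light chains, 47 genes had a median log2 ratio of 0.31, with 4 higher and 3 lower by at least 2-fold, or 8.51% higher beside 11.7% of all genes. At its ends were Phvul.005G168500, the ortholog of a dynein light chain family gene, with 20.0 FPKM in Drought and 0.368 FPKM in Control, and Phvul.002G312600, listed by the study as the ortholog of ROPGEF11, with 4.70 FPKM in Drought and 28.2 FPKM in Control. Microtubule cytoskeleton organization had a median of 0.10 over 115 genes, with 17 higher and none lower by at least 2-fold. All 17 were below 1 FPKM in Control, and with 1 FPKM required in both libraries the count was 0 and the median -0.05. Its highest members were Phvul.009G086700, annotated to copper ion binding at the plasma membrane, and Phvul.002G329400, the ortholog of a thaumatin-like gene, a family of extracellular proteins. Microtubule binding had a median of 0.17 over 21 genes, with 2 higher by at least 2-fold, both of low FPKM. The higher, Phvul.006G140300, had 1.27 FPKM in Drought and 0.0419 FPKM in Control. Cortical microtubule organization had a median of 0.09 over 14 genes. Of these, 2 were higher by at least 2-fold, Phvul.006G133700 (GH9A1, an endoglucanase required for cellulose formation in Arabidopsis) and Phvul.003G089600, both annotated to cellulase activity. GH9A1 had 48.7 FPKM in Drought and 11.8 FPKM in Control, and Phvul.003G089600 had 69.1 FPKM in Drought and 24.0 FPKM in Control. The term tubulin complex assembly, for the folding and pairing of tubulin, had 7 genes with a median of -0.32 and none past 2-fold in either direction.

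Microtubule nucleation had a median log2 ratio of 0.36 over 72 genes, with 15 higher and none lower by at least 2-fold, or 20.8% beside 11.7% of all genes. Its highest members are wall proteins rather than nucleation factors: Phvul.011G063800 (EXPA4, an expansin, which loosens cell walls), with 18.9 FPKM in Drought and 2.38 FPKM in Control, and Phvul.011G004400 (EXL3, of the EXORDIUM family), with 16.1 FPKM in Drought and 1.94 FPKM in Control. The terms of the arrays of dividing cells lay at the median of all genes, with -0.11 over 14 genes of preprophase band, -0.01 over 27 genes of spindle and -0.01 over 42 genes of phragmoplast. At 2-fold, 1 gene of preprophase band, 1 of spindle and 3 of phragmoplast were higher and none was lower. The highest of phragmoplast was Phvul.004G077900, annotated to SNAP receptor activity at the cell plate, with 4.60 FPKM in Drought and 0.174 FPKM in Control. Structural genes of the cytoskeleton without the term microtubule, many of them annotated to actin, had a median of -0.05 over 20 genes, with 2 higher and 1 lower by at least 2-fold. Summed, the 25 genes of this list had 946 FPKM in Drought and 967 FPKM in Control. Actin binding had a median of 0.03 over 42 genes, with 4 higher and 1 lower by at least 2-fold. Its highest member was Phvul.008G050300 (AFH1, a formin, a family that nucleates actin filaments), with 5.93 FPKM in Drought and 0.803 FPKM in Control.

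**Figure D5:**
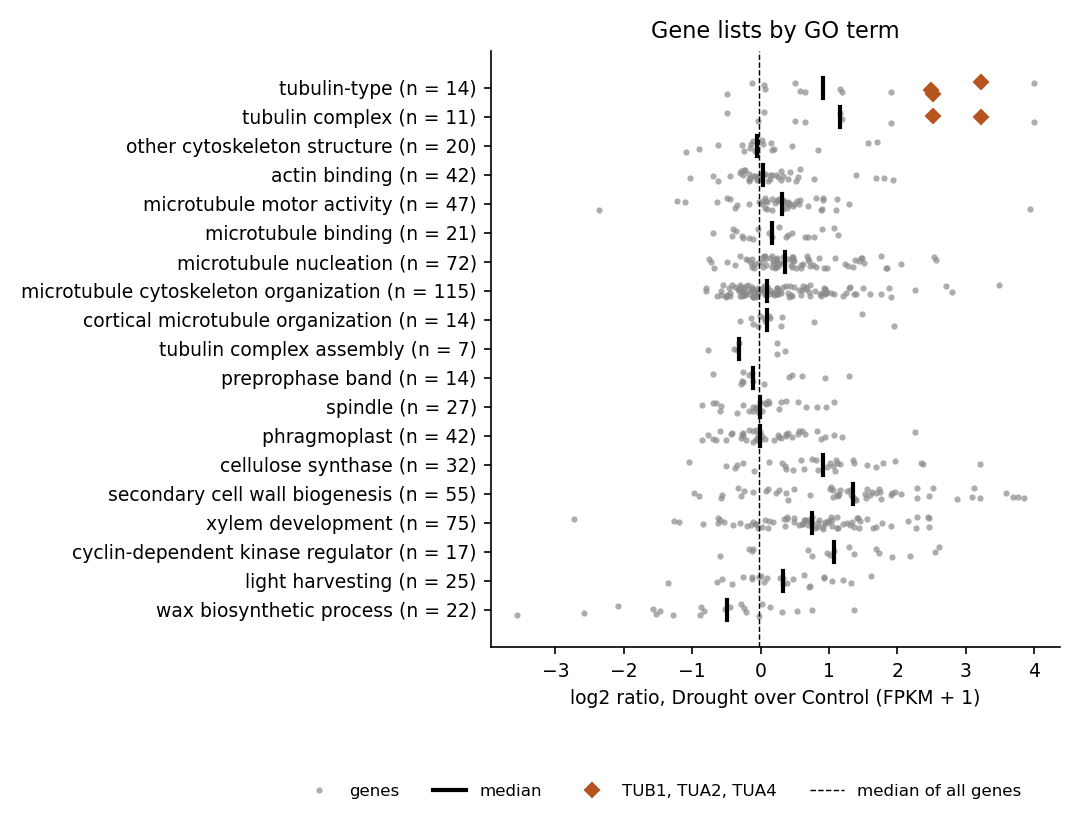
Log2 ratio of Drought over Control (x axis, FPKM + 1) for the genes of each GO list that reached 1 FPKM (grey points, n beside each name), with TUB1, TUA2 and TUA4 as diamonds, thick bars at the list medians and a dashed line at the median of all genes, -0.03. Lists were chosen after the medians of their terms had been seen. The tubulin-type median of 0.91 includes the 3 selected genes and is 0.58 without them, and both lie to the right of the dashed line, as do the medians of cellulose synthase (0.91), secondary cell wall biogenesis (1.35), xylem development (0.76) and cyclin-dependent kinase regulator (1.07), and the medians of spindle, phragmoplast and other cytoskeleton structure lie close to it.

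Lists of wall synthesis and of cyclins, chosen after the medians of their terms had been seen, had medians above that of all genes. Of the 40 genes with cellulose synthase activity, 32 reached 1 FPKM, with a median log2 ratio of 0.91. Of these 32, 15 were higher and 1 lower by at least 2-fold, where 11.7% of all genes were higher and 6.60% lower. With 1 FPKM required in both libraries, as is met by TUB1, TUA2 and TUA4, the median was 0.61 and 8 genes were higher, beside 8.24% of all genes under that filter. The filter also left fewer genes in this list and in those below. Their number is not given, so counts under it are not shares of the unfiltered numbers. CESA4 (Phvul.009G242700), a cellulose synthase gene of secondary walls in Arabidopsis, had 18.1 FPKM in Drought and 1.07 FPKM in Control, a log2 ratio of 3.21. Of secondary cell wall biogenesis, a mark of xylem and fibre cells, 55 of 78 genes reached 1 FPKM, with a median log2 ratio of 1.35 and 39 higher by at least 2-fold. Many were below 1 FPKM in Control, and with 1 FPKM required in both libraries the median was 0.38 and 9 genes were higher. All 78 genes summed to 833 FPKM in Drought and 471 FPKM in Control, with 2 listed at 0 in Drought and 15 in Control. Xylem development, in which 75 of 114 genes reached 1 FPKM, had a median of 0.76, with 26 higher and 3 lower by at least 2-fold. With 1 FPKM in both libraries the median was 0.44 and 8 genes were higher. Its sum was lower in Drought, at 2295 FPKM, against 2567 FPKM in Control, with 5 genes at 0 in Drought and 10 in Control. Among its highest members was Phvul.008G029000 (IRX6, of a COBRA-like family of secondary walls in Arabidopsis), with 6.49 FPKM in Drought and 0.356 FPKM in Control. Regulators of cyclin-dependent kinases, the term of the cyclins, had a median of 1.07 over 17 of 24 genes, and 10 were higher by at least 2-fold. With 1 FPKM in both libraries the median was 0.32 and 3 genes were higher. Their sum was 216 FPKM in Drought and 160 FPKM in Control, and 1 was listed at 0 in either library. The D-type cyclin gene CYCD1;1 (Phvul.003G054900) had 21.2 FPKM in Drought and 2.63 FPKM in Control. A different share of xylem or of dividing cells in the tissue, and its part in the values of TUB1, TUA2 and TUA4, was not tested.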

How the data were processed

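RNA-Seq libraries of PS aerial tissue, 1 from Drought and 1 from Control plants, were analysed from the authors' table. Per the labels and methods, libraries of poly(A) RNA were read from 1 end, and reads were trimmed with Trimmomatic, aligned with TopHat to the G19833 genome and passed through Cufflinks, Cuffmerge and Cuffdiff. The labels mention 2 libraries per condition, but the table holds 1 value. Deposited values are FPKM as the authors made them, scaled to mapped reads. The authors' fold change, test statistic and p and q columns were not used. The number of columns of per-sample values left unused was 0.

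Log2 ratios with a pseudocount of 1, ranks, sums and medians were computed in Python 3.11.15 with pandas 2.3.3. The ratio step and the counts past 2-fold and 4-fold were tested on simulated data, and the rank steps were not. With 1 library per condition no test was run. Lists came from the deposited GO column, filled for 90.3% of genes and shortened at 1024 characters in 227, since no table of product names was used here. Tubulin-type genes carry 4 GO terms. The members and lists were chosen with earlier results of these data known, the lists after the medians of their terms had been seen. Genes named were the members, the tubulin-type genes, up to 2 at each end of a list, the 3 most alike to each member and the nearest neighbours on the chromosome. Symbols of other genes are those the study gives. Alternatives varied the pseudocount, the scaling, the filter, the window of similar expression and the family.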

Additional observations from a re-analysis of the deposited data

How the results depend on the processing

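The log2 ratios of TUB1 (2.50 to 2.59), TUA2 (2.52 to 2.61) and TUA4 (3.22 to 3.32) stayed past 4-fold under pseudocounts of 0.1 and 0.01, scaling to the 75th percentile or to a sum of 1000000, and centring on the median. A value counts as moved past 1.5-fold, since no replicate spread exists. The number of other tubulin-type genes higher by 4-fold was 2 under either scaling in place of 1, and 2 were lower under every setting run on this family. The family by the term tubulin complex, chosen after seeing the data, had a median of 0.65 without TUA2 and TUA4. Ranked among genes of similar Control level alone, TUB1 was in the top 0.363% in place of 0.750%, and TUA2 in the top 0.304% in place of 0.885%.

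Pseudocounts of 0.1 and 0.01 gave 1303 and 1413 genes of all higher by 4-fold in place of 487, and 495 and 519 lower in place of 318. Medians became 2.99 and 3.29 for secondary cell wall biogenesis and 2.72 and 3.09 for cyclin-dependent kinase regulators. Under both pseudocounts, genes higher by 2-fold numbered 7 for actin binding, 10 for microtubule motor activity, 28 for microtubule cytoskeleton organization, 2 for preprophase band, 3 for spindle, 6 for phragmoplast and 2 for wax biosynthesis, and 42 and 43 for xylem development. Those higher by 4-fold numbered 1 for other cytoskeleton structure, 4 for actin binding, 4 for motor activity, 1 for microtubule binding, 7 for nucleation, 1 for cortical microtubule organization, 1 for preprophase band, 2 for phragmoplast, 9 for cellulose synthase and 10 for the kinase regulators. They numbered 18 and 20 for microtubule cytoskeleton organization, 35 and 36 for secondary cell wall biogenesis and 21 and 25 for xylem development. Lower by 2-fold were 1 gene each of microtubule cytoskeleton organization, spindle, phragmoplast and secondary cell wall biogenesis (that of the last also by 4-fold), and 5 and 7 of xylem development.

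Under scaling to the 75th percentile or to a sum of 1000000, 0 genes of other cytoskeleton structure, actin binding and cellulose synthase were lower by 2-fold, 1 of cortical microtubule organization was higher by 4-fold, and 2 of preprophase band were higher by 2-fold. The 75th percentile alone gave 2 for spindle by 2-fold and 1 for actin binding by 4-fold, and the sum alone 1 for microtubule binding by 2-fold.

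With 1 FPKM or more required in both libraries, 17601 genes were left, of which 309 were higher by 4-fold and 1451 (8.24%) by 2-fold. The medians of secondary cell wall biogenesis and the kinase regulators were then 0.38 and 0.32. By 2-fold, this left 2 genes of actin binding, 2 of motor activity, 8 of cellulose synthase, 9 of secondary cell wall biogenesis, 8 of xylem development, 3 of the kinase regulators and 0 of microtubule binding, microtubule cytoskeleton organization, preprophase band, spindle and phragmoplast. By 4-fold, it left 4 of secondary cell wall biogenesis, 2 of xylem development and 0 of motor activity, microtubule cytoskeleton organization and phragmoplast. With 5 FPKM or more in Drought or Control, 1520 genes of all were higher by 2-fold, with 1 of motor activity, 3 of microtubule cytoskeleton organization, 17 of secondary cell wall biogenesis, 12 of xylem development, 3 of the kinase regulators and 0 of microtubule binding, preprophase band, spindle, phragmoplast and wax biosynthesis. That filter left 0 genes of phragmoplast higher by 4-fold. The number of genes left in each list by these filters is not given, so these counts are not shares of the full lists. For the filter of 5 FPKM the number left of all genes is not given either. Whether a list's count there lies above or below the share of all genes was not determined.

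The lowest FPKM of TUB1, TUA2 and TUA4 was 11.8, in Control. A family from product names, and sums for alpha and beta tubulin apart, were not run, since the isotype of the other genes is not named. No paired analysis was possible because each condition has 1 library, and with 1 library per condition none was left out in turn.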

Other observations

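Wax biosynthesis, a process of the epidermis and a list also chosen with its median known, stood on the other side from the tubulin genes. The median log2 ratio was -0.48 over the 22 genes that reached 1 FPKM, with 1 higher and 7 lower by at least 2-fold (11.7% and 6.60% of all genes). Summed, the 26 genes of the term had 394 FPKM in Drought and 984 FPKM in Control. CER3 (Phvul.003G151600), which acts in the making of cuticle wax, had 13.5 FPKM in Drought and 169 FPKM in Control, a log2 ratio of -3.56.

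Among structural genes of the cytoskeleton without the term microtubule, both genes that were higher by at least 2-fold were low in Control and are annotated to actin cytoskeleton organization. Phvul.004G001000 had 6.02 FPKM in Drought and 1.16 FPKM in Control, and Phvul.005G143500 had 10.1 FPKM in Drought and 2.72 FPKM in Control.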
